A study of Mus musculus with 6 samples.

Results

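The adhesion G protein-coupled receptors were taken as all protein-coding genes whose GENCODE M21 symbol begins with Adgr followed by a subfamily letter and a number, together with Celsr1, Celsr2 and Celsr3. The rule found 30 genes among the 55573 genes of the count table. The family was chosen by results of the same comparison that is described here, since Adgrl3 was already known to pass the threshold in it. All differences between the groups are therefore given as a description of these libraries, and none is offered as a test of the family.

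Lung RNA was sequenced from wild-type C57BL/6 mice, 9 to 10 weeks old, in 6 libraries. The CS group (3 libraries) was exposed to cigarette smoke for 75 min per session, 2 sessions a day, 5 days a week, over 4 weeks. The SS-31H_CS group (3 libraries) was exposed to smoke and was also given SS-31 (5 mg/kg once a day), a peptide antioxidant that accumulates in mitochondria. All 6 libraries thus came from smoke-exposed animals, and the schedule above is stated for CS only. Whether each library stands for a separate mouse is not said, nor is sex or pooling, so the spread between libraries may be technical. Whole lung was used, so fewer cells of a type and less RNA per cell cannot be told apart in any value below.

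Adhesion receptors span the membrane through the usual helices of a G protein-coupled receptor but carry a very long extracellular part with adhesion domains. Most are cut during their maturation at a conserved site next to the membrane, and the short stretch that follows the cut can act as a tethered agonist. In the lung the family is known for surfactant control by Adgrf5, for the F4/80 macrophage marker encoded by Adgre1, and for planar cell polarity through the Celsr cadherins. Several members are markers of endothelium or of leukocytes.

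Library totals ran from 15611925 to 17360052 counts, and the family took 0.249% to 0.387% of them. Of the 30 genes, 21 passed the low-count filter and 9 did not. Celsr3, Adgrf1 and Adgrg4 had no count in any library, and 3 counts would have been 0.172 to 0.185 CPM (counts scaled to a common library size and corrected for composition). Adgrb3 reached at most 2 counts, Adgra1 2, Adgrg7 6, Adgrf2 8, Adgrf3 9 and Adgrf4 13. Adgrb3 and Adgra1 are known as brain receptors and Adgrg7 as an intestinal one. At this depth their counts were at or near the detection limit. Such a count need not stand for a missing transcript. Pdpn, a marker of alveolar type 1 cells, also had 0 counts in every library. Ager, a marker of the same cells, averaged 2750 CPM in CS and 2199 in SS-31H_CS. Why Pdpn had no counts was not tested.

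Levels can be compared between genes only per transcript length, for which the deposited FPKM were used. Adgre5 (mean 184 FPKM over 6 libraries, range 127 to 238) and Adgrf5 (155 FPKM, 111 to 194) stood at the top. Adgre5 encodes CD97, an adhesion receptor of leukocytes and many epithelia, and Adgrf5 encodes GPR116, found on alveolar type 2 cells and lung endothelium. Their ranges overlapped, and Adgre5 was the higher of the pair in 5 of 6 libraries. Together they held 59.5% to 68.3% of the family's counts in a library. The next gene, Adgrl4 (36.9 FPKM, at most 47.3), lay below the lowest Adgrf5 value of 111 FPKM in every library. Its counts per kilobase of M21 exon length would give 45.9, with the same place in the order.

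Adgrl4, the endothelial receptor ELTD1, was followed by Adgrg1 (31.5 FPKM), a receptor for collagen III, and these neighbours overlapped. Adgrl1 (16.6 FPKM), Adgra2 (14.8), Adgra3 (10.4) and Adgre1 (10.2) formed the next stretch, each overlapping its neighbour, while the lowest Adgrg1 value (25.8 FPKM) exceeded the highest Adgrl1 value (19.9 FPKM). From Adgrl2 (7.66 FPKM) through Adgrg6, Celsr1, Adgrd1, Celsr2, Adgrg3, Adgrl3 (2.31 FPKM) and Adgre4 (1.92 FPKM), again no neighbours were separated. In all, 17 of the 30 genes averaged at least 1 FPKM. Adgrg2 (0.870 FPKM) and Adgrb2 (0.345 FPKM) each stood clear of the gene next below. Adgrb1 averaged 0.143 FPKM and Adgrv1 0.0533 FPKM, although Adgrv1 had up to 41 counts over its exceptionally long exon sequence (24878 bp).

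**Figure D1:**
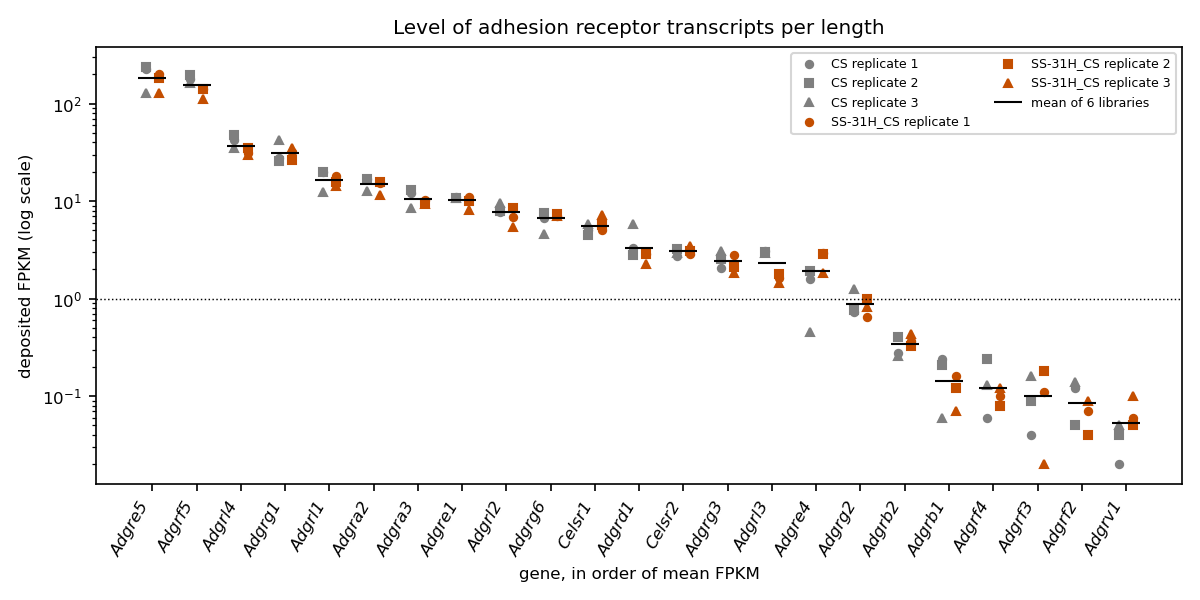
Deposited FPKM (log axis) of 23 members with a mean of at least 0.05 FPKM, in order of their mean (black bar). Grey symbols are the 3 CS libraries and orange symbols the 3 SS-31H_CS libraries; Adgre5 and Adgrf5 lie above 100 FPKM in every library, and the dotted line marks 1 FPKM.

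Adgrl3 was the 1 member past the threshold (adjusted p under 0.05, edgeR's quasi-likelihood test over all 16965 genes tested), and it was lower with SS-31. That is 1 of 21 tested members, against 0.153% of all tested genes in either direction and 0.0825% in the lower direction. These percentages are given for scale, since the result of Adgrl3 itself led to the choice of the family. Adgrl3 encodes latrophilin 3, a receptor that binds teneurins and FLRT proteins on neighbouring cells. It lies on chromosome 5 from 81020138 to 81825133 on the plus strand (GRCm38, ENSMUSG00000037605), with 17750 bp of exon sequence.

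In replicates 1, 2 and 3 Adgrl3 stood at 55.4, 52.8 and 55.1 CPM with smoke alone (CS), and at 28.4, 30.1 and 25.4 CPM in SS-31H_CS. All groups below are given in that replicate order. The groups did not overlap, and every SS-31H_CS library held between 46.6% and 55.3% of the CS mean. The means were 54.4 ± 1.40 CPM and 27.9 ± 2.38 CPM (SD, n = 3 per group), and Adgrl3 fell by 0.96 on the log2 scale (SE 0.10), to 0.514 of the CS level. Its spread within groups (SD 0.0919 on the log2 CPM scale) was below the median of all tested genes (0.217) and of the tested members (0.261). A small spread makes it easier to pass the threshold, and Adgrl3 was singled out for passing. Its low spread is thus no separate support.

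The Adgrl3 estimate stayed between -1.02 and -0.90 with any 1 library left out. With 5 libraries it passed the threshold without CS replicate 3, and did not pass without any other single library. It also did not pass on log2 FPKM or with the replicate number as a block. The antisense gene Gm16054 covers 8.91% of the Adgrl3 exon length. With 7 to 21 counts per library, against 432 to 940 for Adgrl3, Gm16054 was a small fraction of it.

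The other members of subfamily L had fold changes closer to 0. Adgrl4, the endothelial receptor related to the latrophilins, was at 247, 268 and 212 CPM in CS, against 178, 192 and 168 in SS-31H_CS. Its gene runs from 151437887 to 151545086 on chromosome 3 (GRCm38, ENSMUSG00000039167). The groups did not overlap, the lowest CS library being replicate 3, and the log2 fold change was -0.43 (SE 0.12). Adgrl2 was at 110, 113 and 141 CPM in CS, against 97.8, 116 and 75.8 in SS-31H_CS (-0.33, SE 0.17). Adgrl1, the calcium-independent receptor for the spider toxin alpha-latrotoxin, was at 172, 170 and 112 CPM in CS, against 154, 127 and 121 in SS-31H_CS (-0.17, SE 0.18). In Adgrl2 and Adgrl1 the groups overlapped, with CS replicate 3 the highest library for Adgrl2 and the lowest for Adgrl1. Exons of other genes on the opposite strand cover 15.6% of the Adgrl1 exon length, among them Gm10644 with 40 to 105 counts per library, against 1820 to 2969 for Adgrl1.

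**Figure D2:**
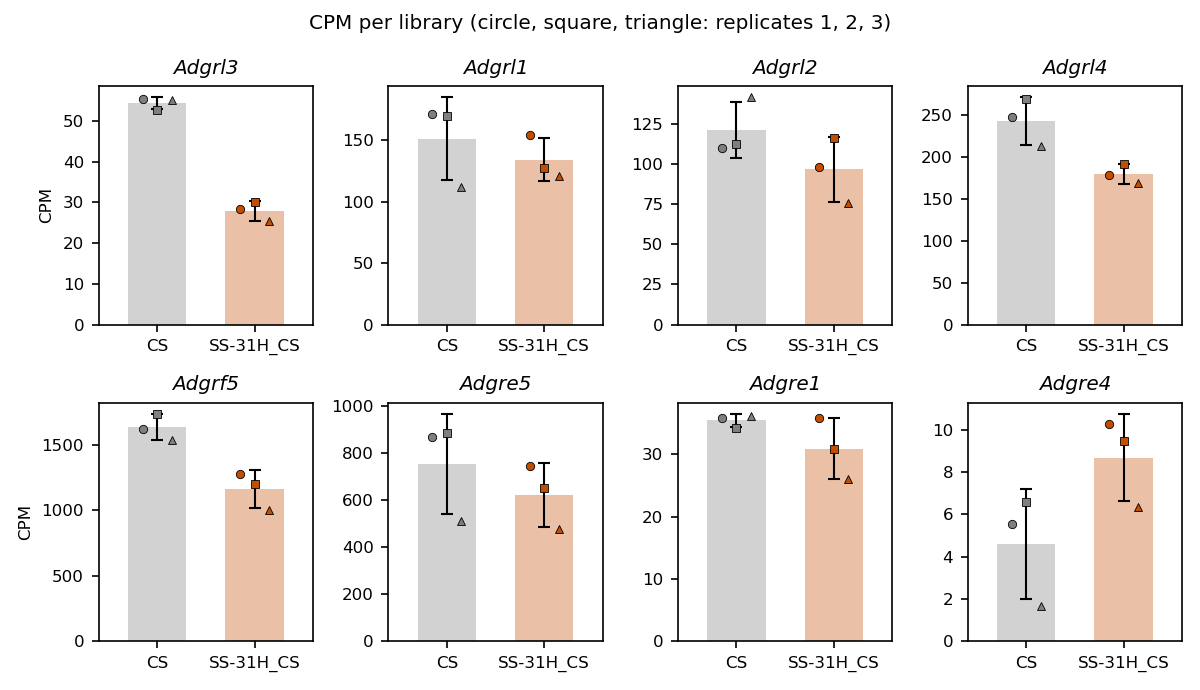
CPM of 8 members in each library, with group means (bars from 0) and SD (error bars), n = 3 libraries per group. Circles, squares and triangles are replicates 1, 2 and 3; the groups are apart in Adgrl3, Adgrl4 and Adgrf5 and overlap in the other 5.

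Adgrf5, on chromosome 17 from 43360451 to 43459557 (GRCm38, ENSMUSG00000056492), was the third member whose libraries did not overlap. It was at 1624, 1737 and 1540 CPM in CS, against 1280, 1201 and 999 in SS-31H_CS. All 3 SS-31H_CS libraries lay below the lowest CS library, with a log2 fold change of -0.49 (SE 0.14), or 0.711 of the CS level. In these 3 genes the SS-31H_CS group was the lower, which makes 3 of 21 tested members in that direction and 0 in the other. That is 14.3% of the tested members, where 12.4% of all tested genes were apart in the lower direction and 26.1% in either. The share is given for scale, because this contrast chose the family. Adgrf5 and Adgrl4 did not pass the threshold here; DESeq2, which called 5.59% of all genes against 0.153%, called both in addition to Adgrl3.

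Endothelial markers stood lower in the same libraries. The summed level of all 10 markers was 4630 to 5180 CPM in CS, against 3613 to 4280 in SS-31H_CS, a ratio of 0.787 (log2 -0.35). Of the 10, 9 had a log2 fold change below 0, against 48.7% of all tested genes. By edgeR's test 0 passed the threshold, while 3 had an unadjusted p under 0.05 (18.2% of all genes did). These were Pecam1 (-0.51), Cdh5 (-0.57) and Cldn5 (-0.36). The same 3 did not overlap between the groups, nor did 26.1% of all tested genes. Kdr, another endothelial receptor gene, averaged 394 CPM in CS, against 390 in SS-31H_CS. Adgrf5, at 78.4%, 73.5% and 61.2% of its CS mean, and Adgrl4, at 73.3%, 79.1% and 69.5%, can be set beside the summed markers (86.4%, 76.9% and 72.9%) and Adgrl3 (52.2%, 55.3% and 46.6%). Adgrl3 and Adgrf5 were below the markers in each SS-31H_CS library, and Adgrl4 in 2 of the 3. Which cells carry Adgrl3 cannot be read from these libraries. In other lists the summed ratio was 0.507 for alveolar macrophages, 0.835 for alveolar type 1 cells, 0.989 for fibroblasts and 1.03 for smooth muscle and pericytes. Abundant markers weigh most in a sum. The alveolar macrophage sum was at -0.98 on the log2 scale, where the median of its markers was -0.52. Fibroblast markers were split, with 5 above 0 and 3 below. The 2 fibroblast markers that did not overlap (26.1% of all tested genes) went opposite ways. Pdgfra was at 472 CPM in CS, against 278 in SS-31H_CS (-0.76), and Col1a2 at 239 against 316 (0.40). The part of endothelial or other cell content in the values of Adgrf5, Adgrl4 and Adgrl3 was not tested. Markers of alveolar type 2 cells, which also carry Adgrf5, summed to 15850 to 17660 CPM in CS, against 14120 to 19200 in SS-31H_CS. Most of that sum was Sftpc, with a mean of 13280 of 16510 CPM in CS. Of the 6 type 2 markers, 4 were below 0 and 2 above, with a median of -0.10. The 1 that did not overlap was Abca3, at 543.5 CPM in CS, against 398.7 in SS-31H_CS (-0.45).

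**Figure D3:**
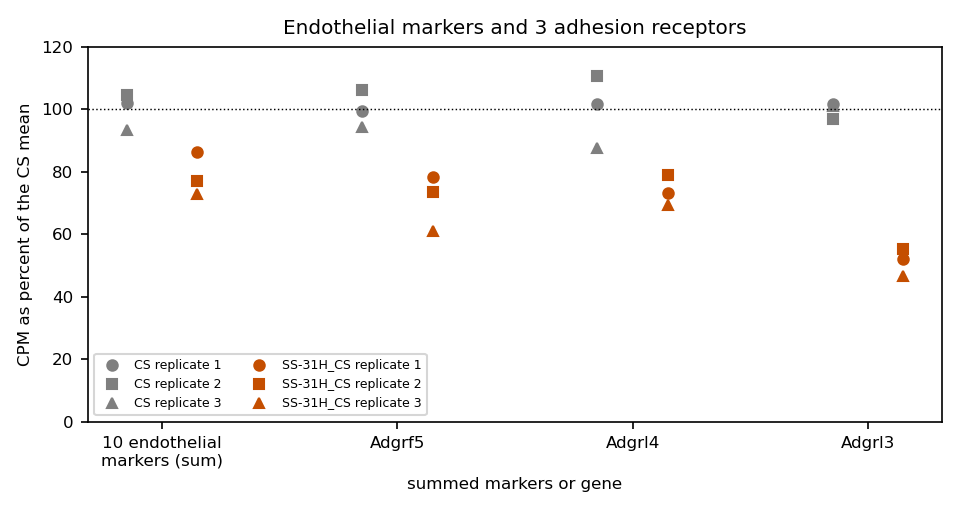
CPM of each library as a percentage of the CS mean, for the sum of 10 endothelial markers and for Adgrf5, Adgrl4 and Adgrl3 (grey CS, orange SS-31H_CS; symbols are replicates). The SS-31H_CS libraries lie at 72.9% to 86.4% for the markers and at 46.6% to 55.3% for Adgrl3.

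The promoters of Adgrf5 (the first of 2 start sites in the table) and Adgrl4 are shown because these genes lay low in the same libraries. Each line gives the 250 bases upstream of a RefSeq transcription start (GRCm38.p6), at chr17:43360181-43360430 and chr3:151437632-151437881, both on the plus strand. Capitals mark GGAA or its reverse complement TTCC, the core recognised by ETS factors, a family that includes endothelial regulators.
Adgrf5: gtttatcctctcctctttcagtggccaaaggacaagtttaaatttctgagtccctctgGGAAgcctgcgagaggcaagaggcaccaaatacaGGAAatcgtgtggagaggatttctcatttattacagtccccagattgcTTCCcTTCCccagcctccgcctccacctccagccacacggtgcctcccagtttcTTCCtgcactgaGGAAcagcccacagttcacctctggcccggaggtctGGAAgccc
Adgrl4: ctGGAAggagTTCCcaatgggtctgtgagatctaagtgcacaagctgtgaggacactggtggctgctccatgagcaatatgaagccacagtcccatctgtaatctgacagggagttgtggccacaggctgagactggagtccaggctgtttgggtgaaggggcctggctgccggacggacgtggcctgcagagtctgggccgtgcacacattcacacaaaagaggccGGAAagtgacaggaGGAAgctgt

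The Adgrf5 window holds 7 such cores and the Adgrl4 window 4, against a median of 3 over all 32851 promoter windows of this length. The second Adgrf5 window holds 5. Such numbers were not particular to these genes, since Adgrg7 (6), Adgrg3 (5) and Adgrf1 (4) had like ones, while Adgrb2 had 0. At least 1 core is present in 93.4% of all windows, so a match describes the sequence only. Each of these windows holds 5 CpG dinucleotides, near the median of 6 over all windows, and the second Adgrf5 window, not printed, holds 7. The printed windows hold neither a GC box (GGGCGG, either strand, in 32.7% of windows) nor a TATA box (TATAAA, either strand, in 12.4%). The table has 3 start sites for Adgrl3, whose windows hold 36, 18 and 18 CpG dinucleotides, and each has a GC box. The 3 Adgrl3 windows hold 0, 2 and 2 ETS cores. These windows lie downstream of the gene start in GENCODE M21 and are not printed. In all, 22 of the 30 members matched the table, with 26 windows, of which 14 (53.8%) hold a GC box, 21 (80.8%) an ETS core and 2 (7.69%) a TATA box. No binding was measured in these libraries.

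Adgre5, the leukocyte receptor with the highest level, was at 867, 888 and 510 CPM in CS, against 744, 650 and 476 in SS-31H_CS, with a log2 fold change of -0.28 (SE 0.25). The third library of each group was its lowest, and the groups overlapped. Exons of Ddx39, on the opposite strand, make up most of the 24.6% of the Adgre5 exon length that other genes cover. Ddx39 had 944 to 1385 counts per library against 8106 to 15512 for Adgre5, and the strand setting of the counting is not given in the sources used here.

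Adgre1 was at 35.9, 34.3 and 36.2 CPM in CS, against 35.8, 30.9 and 26.0 in SS-31H_CS (log2 fold change -0.20, SE 0.13). Alveolar macrophage markers summed to 1504 to 1917 CPM in CS, against 662 to 1029 in SS-31H_CS, while markers of monocytes and interstitial macrophages summed to 462 to 489 and 418 to 604 CPM. All 8 alveolar macrophage markers had a log2 fold change below 0, as did 48.7% of all tested genes. By edgeR's test 0 passed the threshold, though 5 had p under 0.05 before adjustment (18.2% of all genes did). The summed alveolar macrophage markers thus did not overlap between the groups, whereas Adgre1 did. Mouse eosinophils also carry F4/80, and of their 4 listed markers Epx reached at most 0.183 CPM, Ccr3 0.549, Prg2 0.610 and Il5ra 1.70 CPM. Summed, the 4 were at 0.308 to 1.71 CPM in CS, against 1.42 to 2.50 in SS-31H_CS, and their part in Adgre1 was not tested.

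Adgre4, a myeloid receptor of the same subfamily, had the highest log2 fold change among the tested members (0.91, SE 0.44) without passing the threshold. It was at 5.54, 6.58 and 1.67 CPM in CS, against 10.3, 9.45 and 6.34 in SS-31H_CS. The groups overlapped through CS replicate 2, which lay above SS-31H_CS replicate 3, and CS replicate 3 was the lowest library with 27 counts. T and NK cell markers were also lowest in that library, at 22.3 CPM against 93.8 and 121 in the other CS libraries, as were B cell markers, at 37.9 CPM against 149 and 206. Of the myeloid lists, eosinophil markers were lowest there too, at a low level (0.308 CPM). Other myeloid markers were not low there. Monocyte and interstitial macrophage markers were at 481 CPM, against 489 and 462 in the other CS libraries. Alveolar macrophage markers (1917 CPM) and neutrophil markers (3487 CPM) were highest there among the CS libraries. Without CS replicate 3 the Adgre4 value was 0.52, and the part of these cells in it was not tested.

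Adgrg3, the neutrophil receptor GPR97, was at 14.5, 17.6 and 22.2 CPM in CS, against 19.5, 14.0 and 12.5 in SS-31H_CS (-0.24, SE 0.22). Summed neutrophil markers were likewise high in SS-31H_CS replicate 1 and low in replicate 3, at 3380, 1289 and 460 CPM, and were highest in CS replicate 3 (3487 CPM, against 3014 and 2386). Adgrg3 overlapped between the groups, and the part of neutrophil content in its value was not tested.

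Adgrg1 and Adgrd1 were both highest in CS replicate 3. Adgrg1 was at 153, 139 and 239 CPM in CS, against 173, 135 and 190 in SS-31H_CS, so its log2 fold change of -0.09 (SE 0.22) became 0.18 with CS replicate 3 left out, or 0.04 with SS-31H_CS replicate 2 left out. Adgrd1, the Gs-coupled receptor GPR133, was at 27.6, 23.4 and 51.2 CPM in CS, against 23.6, 22.9 and 18.9 in SS-31H_CS, with a log2 fold change of -0.64 (SE 0.28). Without CS replicate 3 the Adgrd1 value was -0.23.

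Adgrg6, the receptor GPR126 that drives myelination by Schwann cells, was at 82.5, 90.9 and 58.8 CPM in CS, against 85.2, 85.7 and 86.3 in SS-31H_CS (0.15, SE 0.16). The 3 SS-31H_CS libraries differed by little more than 1 CPM, and CS replicate 3 was the low one of the 6. Adgrg2, best known from the epididymis, was at 3.89, 4.06 and 6.97 CPM in CS, against 3.36, 5.00 and 4.29 in SS-31H_CS, again with CS replicate 3 as the highest library (-0.24, SE 0.30). Without that library the log2 fold change was -0.02 for Adgrg6 and 0.08 for Adgrg2.

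The Celsr genes, core planar cell polarity cadherins that orient ciliated cells, overlapped between the groups. Celsr1 was at 56.0, 49.1 and 67.5 CPM in CS, against 56.1, 59.8 and 78.1 in SS-31H_CS (0.17, SE 0.16). Celsr2 was at 31.9, 36.8 and 35.2 CPM in CS, against 33.1, 33.7 and 39.9 in SS-31H_CS (0.04, SE 0.12). Ciliated cell markers, by contrast, did not overlap as a sum, at 346 to 524 CPM in CS, against 665 to 970 in SS-31H_CS. Tppp3 weighs most in that sum, at 311 CPM in CS, against 463 in SS-31H_CS (0.57). Over the 7 markers the median log2 fold change was 1.07, and 6 did not overlap, against 26.1% of all tested genes. The part of ciliated cells in the Celsr values was not tested. Adgrv1, the giant receptor of hair cell stereocilia, was at 0.472, 1.09 and 1.23 CPM in CS, against 1.54, 1.16 and 2.41 in SS-31H_CS, from 8 to 41 counts per library (0.87, SE 0.45).

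Adgra2, which acts with Reck as a co-receptor for Wnt7 in brain vessels, was at 97.8, 97.3 and 77.4 CPM in CS, against 89.1, 86.3 and 65.7 in SS-31H_CS (-0.18, SE 0.15). Adgra3 was at 98.9, 104 and 73.1 CPM in CS, against 82.6, 74.3 and 74.6 in SS-31H_CS (-0.25, SE 0.15). In both genes CS replicate 3 was well below the other CS libraries, and the groups overlapped. Adgrb1, which helps phagocytes take up apoptotic cells through Elmo1 and Dock1, was at 1.77, 1.49 and 0.493 CPM in CS, against 1.12, 0.854 and 0.470 in SS-31H_CS, from 8 to 30 counts (-0.62, SE 0.53). Adgrb2 was at 1.83, 2.58 and 1.79 CPM in CS, against 2.42, 2.01 and 2.76 in SS-31H_CS, from 29 to 47 counts (0.22, SE 0.28). Both overlapped between the groups.

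Across the 21 tested members, 14 had a log2 fold change below 0 and 7 above, with a median of -0.20. Over all tested genes 48.7% were below 0 and the median was 0.01, with quartiles at -0.19 and 0.25. All 4 Adgrl genes and both tested Adgra genes were below 0, and both tested Celsr genes were above, Celsr2 turning sign without CS replicate 1 or SS-31H_CS replicate 3. Only members that passed the low-count filter are counted here, so the numbers do not stand for all 30.

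**Figure D4:**
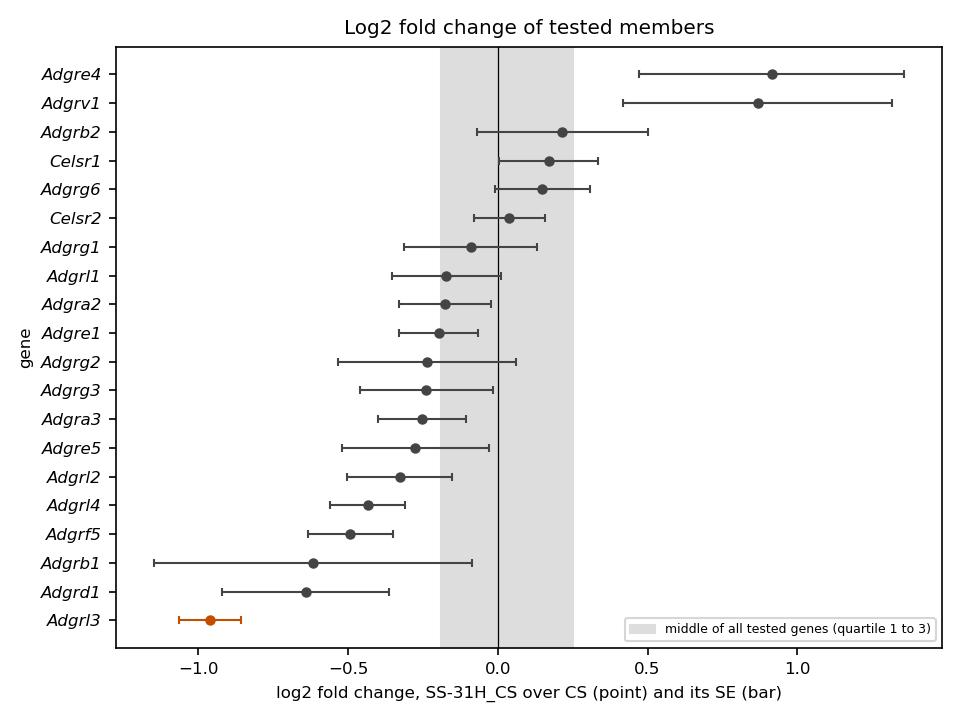
Log2 fold change of SS-31H_CS over CS (points) with SE (bars) for 20 of the 21 tested members; the grey band spans the lower to the upper quartile of all tested genes (-0.19 to 0.25). Adgrl3 (orange), the 1 member past the threshold, lies lowest at -0.96, and Adgre4 highest at 0.91.

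The third library of each group set many of the extremes. CS replicate 3 was the lowest of the 6 libraries for 6 tested members and the highest for 6, and SS-31H_CS replicate 3 was the lowest for 10 and the highest for 4. Each of the other 4 libraries was an extreme for 2 to 6 of the 21 members. Adgrl3 was among the 10 lowest in SS-31H_CS replicate 3, while its CS libraries lay within 3 CPM of each other. With replicate 3 of both groups left out, which was decided after seeing the data, Adgrl3 was again the 1 member that passed.

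**Figure D5:**
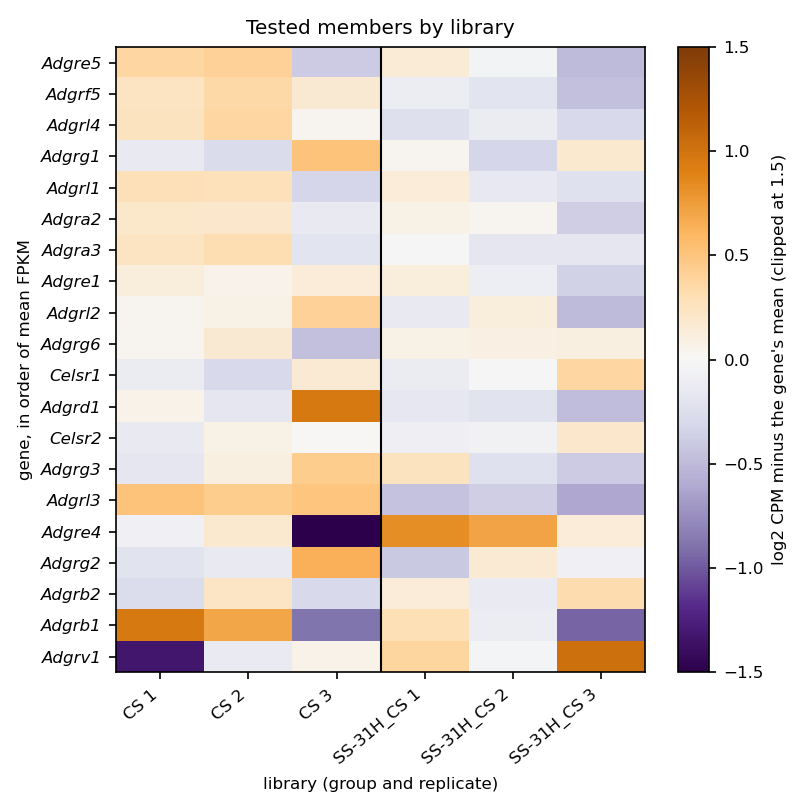
Log2 CPM of 20 of the 21 tested members in each library, minus the gene's mean over the 6 libraries (orange above, purple below, clipped at 1.5); the black line parts CS from SS-31H_CS. Adgrl3 is high in all 3 CS libraries and low in all 3 SS-31H_CS libraries, while Adgre4 is lowest and Adgrd1 highest in CS replicate 3.

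Known binding partners and signalling genes were taken from lists drawn up from textbook knowledge. Of 13 latrophilin partners (among them teneurins, FLRT and UNC5 proteins), 10 were tested and 0 passed by edgeR's test, DESeq2 or voom (which called 0.0354% of all genes). There were 4 with p under 0.05 before adjustment (18.2% of all genes), of which 3 were higher, and the median log2 fold change of the list was 0.25. Flrt3, a high-affinity latrophilin ligand, was at 49.2, 43.8 and 61.0 CPM in CS, against 40.7, 40.9 and 31.9 in SS-31H_CS, with no overlap (-0.44, edgeR adjusted p = 0.208). Tenm4 went the other way at a low level, at 0.943 ± 0.252 CPM in CS, against 1.87 ± 0.143 in SS-31H_CS (0.98, edgeR adjusted p = 0.185), as did Flrt1 (1.01, edgeR adjusted p = 0.267). These genes were picked for the lowest p in the list, where 5 of the 10 tested did not overlap (26.1% of all tested genes).

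Of 19 partners of other adhesion receptors, 14 were tested and 0 passed by edgeR's test or voom, 6 having an unadjusted p under 0.05 (18.2% of all genes did) and 4 (Cd55, Col4a1, Tgm2 and Wnt7a) being called by DESeq2 (5.59% of all genes). The list was split, with 6 members above 0 and 8 below and a median of -0.02. Cd55, the complement regulator that CD97 binds, was at 46.4, 49.7 and 40.1 CPM in CS, against 61.8, 72.2 and 98.3 in SS-31H_CS (0.77, edgeR adjusted p = 0.109). Its receptor gene Adgre5 was at -0.28 on the same scale. Tgm2, a transglutaminase that binds the Adgrg1 product, was at 815, 774 and 1365 CPM in CS, against 617, 501 and 445 in SS-31H_CS (-0.92, edgeR adjusted p = 0.134). Wnt7a, a ligand for the complex of Adgra2 and Reck, was at 34.4, 29.0 and 44.7 CPM in CS, against 26.9, 18.1 and 15.4 in SS-31H_CS (-0.84, edgeR adjusted p = 0.146). None of the 3, picked for the lowest p in the list, overlapped between the groups, and CS replicate 3 was the highest for Tgm2 and Wnt7a. Of the 14 tested, 6 did not overlap, against 26.1% of all tested genes.

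Among 21 genes of G protein, RhoA and Rac1 signalling, all tested, 0 passed by edgeR's test or voom, 5 had an unadjusted p under 0.05, all lower, and 2 (Arhgef12 and Gna13) were called by DESeq2. Over all genes these shares were 18.2% and 5.59%. In the list 17 were below 0 and 4 above, with a median of -0.20. Gna13, the G alpha subunit through which many adhesion receptors activate RhoA, was at 140, 162 and 161 CPM in CS, against 113, 113 and 116 in SS-31H_CS (-0.44, edgeR adjusted p = 0.114). Arhgef12, a guanine nucleotide exchange factor downstream of it, was at 333 ± 23.5 CPM in CS, against 243 ± 23.7 in SS-31H_CS (-0.45, edgeR adjusted p = 0.137). Dock1, the Rac1 activator, was at 99.3 ± 9.87 and 77.7 ± 6.63 CPM (-0.35, edgeR adjusted p = 0.189). The groups did not overlap in any of these genes, which were picked for the lowest p in the list. Of all 21, 9 did not overlap, against 26.1% of all tested genes.

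Of 13 planar cell polarity partners of the Celsr proteins, 12 were tested and 0 passed by edgeR's test, DESeq2 or voom, with 3 at an unadjusted p under 0.05 (18.2% of all genes). Prickle2 was at 101 ± 9.04 CPM in CS, against 79.0 ± 6.08 in SS-31H_CS (-0.35, edgeR adjusted p = 0.184), and the protocadherin gene Dchs1 at 34.8 ± 3.73 and 28.4 ± 1.29 CPM (-0.29, edgeR adjusted p = 0.244). Ankrd6, the vertebrate diego homologue, was at 2.83 ± 0.601 and 4.50 ± 0.908 CPM (0.67, edgeR adjusted p = 0.249). With 5 members above 0 and 7 below, the list had a median of -0.05.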

How the data were processed

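Raw read counts per Ensembl gene and FPKM were deposited by the authors for 6 lung libraries. Per the submitters' processing notes, cutadapt 1.9.1, HISAT2 2.0.1, HTSeq 0.6.1 and GRCm38 were used; annotation release and strand setting are not given in the sources used here. Symbols came from GENCODE M21 (55480 of 55573 identifiers matched). For 10 abundant members, the length implied by the deposited FPKM was compared with M21, and Adgrl4 differed by 24.4%. Counts were tested by edgeR 4.0.16 (R 4.3.3; quasi-likelihood, TMM, minimum count 10, minimum total 15, Benjamini-Hochberg adjustment, two-sided); the SE is the log2 fold change over the root of the F statistic. The test was checked on simulated data. Alternatives were RLE and library-size scaling, other filters, DESeq2 1.42.0, limma 3.58.1, log2 FPKM, a replicate block and single libraries left out. Promoters are from RefSeq. Members, lists, partners and markers were chosen with earlier results of these data known. Members were named with their values, except 1 that is not reported here, and up to 3 genes of lowest p per partner list. No unmapped columns were used.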

Additional observations from a re-analysis of the deposited data

How the results depend on the processing

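Adgrl3 kept its direction under every alternative run. It lost its call on log2 FPKM (-0.62 with a pseudocount of 1 and -0.87 with 0.1), with the replicate block, and without any 1 library other than CS replicate 3. Of all genes, 26 passed, against 12 with library-size scaling alone, 648 with no filter, 948 with DESeq2, 6 with voom, 6 on log2(FPKM + 1) with the filter and 4 without it, 5 on log2(FPKM + 0.1), and 1 to 15 with single libraries left out. Of the members, 1 passed, against 3 with DESeq2, 0 in each FPKM fit and 0 to 1 with single libraries left out. DESeq2 called 4 partners of other receptors and 2 signalling genes, and the fit with no filter also 4 partners, against 0. Leaving out replicate 3 of both groups was added after seeing the data, and it turned the sign of Adgrg1 (0.0747), Adgrg2 (0.0697), Adgrg3 (0.0623), Adgrg6 (-0.0223) and Celsr2 (-0.0423). With single libraries left out Adgrg1 ran from -0.24 to 0.18, Adgrg2 from -0.39 to 0.0799, Adgrg6 from -0.0199 to 0.28 and Celsr2 from -0.0562 to 0.0816. With replicate 3 of both groups left out, 36 of all genes passed. The leave-out fits held fewer samples, and the cause of these differences was not tested.

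With the replicate number as a block, 0 genes and 0 members passed (Adgrl3 -0.96, edgeR adjusted p = 0.145). Same-numbered libraries deviated from their group means with correlations of 0.007, 0.036 and -0.057, and differently numbered ones with -0.103 to 0.071. The labels state no pairing, and such correlations from 3 libraries a group cannot settle whether there was one. The Adgrl3 estimate was -0.96 with and without the block, so its lost call does not stand for a smaller fold change. Each replicate number was shared by both groups, so the block could by design move the estimate little. The agreement is therefore no separate support. With 3 libraries a group, and under 50 counts for Adgrb1, Adgrb2 and Adgrv1, small differences in these genes were not detectable at this depth.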
